A study of Homo sapiens with 4 samples.

Results

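Ligands of the chemokine receptor CXCR2 were followed in tumour cells and host cells of the same lesions. The members were 9 of the 68886 genes in the matrices (36601 human and 32285 mouse), chosen by name with earlier results of these data known. Human CXCL1, CXCL2, CXCL3 and CXCL8 were read in human cells. Mouse Cxcl1, Cxcl2, Cxcl3 and Cxcl5 and the receptor gene Cxcr2 were read in mouse cells. The tumour cells were MCF10DCIS.com, a human basal-like breast line that forms lesions resembling ductal carcinoma in situ. They had been grown for 12 days on mammary matrix stripped of its cells and then placed in the right or left fat pad of the same Rag1-/- mouse, and lesions with nearby stroma were taken at 4 weeks. In the young pool the matrix came from mice of 2 to 3 months, and in the aged pool from mice of at least 18 months. Both pools therefore share the tumour line and the recipient genotype, which lacks mature T and B cells, and the age of the recipients is not given in the sources used here. The design text speaks of 3 samples sent to sequencing, and the labels do not say which animals entered a pool. With 1 library a pool, nothing could be tested across samples and the text holds no p-value. Paired values are given as young and then aged.

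CXCR2 ligands are CXC chemokines with a Glu-Leu-Arg motif ahead of the first cysteines. They act through CXCR2, a Gi-coupled receptor that neutrophils carry, and draw those cells out of marrow and blood into tissue. Interleukin-1, tumour necrosis factor and NF-kB signalling induce the ligand genes, and RNA-binding proteins such as ZFP36 shorten the life of their transcripts. Mice lack a CXCL8 gene, and Cxcl1, Cxcl2 and Cxcl5 serve as their main CXCR2 ligands.

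The pools held 2125 and 2001 tumour cells, with a median of 30942 and 30455 unique molecular identifiers (UMIs) per cell, and 11946 and 12924 host cells, with a median of 2286 and 2261. Levels are CPM, the UMIs of a gene per 1000000 UMIs of the same species in the cells named. Genes counted as measured when the pools together gave them 100 UMIs or more and either pool 20 CPM or more, and as apart when the levels then differed 1.5-fold or more. Intervals are exact at 95% and hold counting error, with nothing of the variation among animals. Of the tumour markers 9 of 10 reached 20 CPM in the human cells, while 8 genes of other human cells reached at most 8.61 CPM, with CD3E and HBB at 0. Host cells fell into 24 clusters, named from marker genes as neutrophil-like (14 of 14 markers at 20 CPM or more), monocyte-like (9 of 9), macrophage-like (11 of 12), fibroblast-like (10 of 10), endothelial-like (8 of 8) and natural killer (NK)-like (8 of 9). The pools shared 190 barcodes, which 157 kept cells carried, and without those cells 0 ligands in tumour cells and 5 pairs of gene and host class were apart, as with them. CXCL1, CXCL2 and CXCL3 are closely similar paralogs, and how reads fitting more than 1 of them were assigned is not given in the sources used here.

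The 4 human genes lie in 1 chemokine cluster on chromosome 4. On GRCh38.p14 the RefSeq positions are 73869393 to 73871308 for CXCL1, 74097040 to 74099195 for CXCL2, 74036589 to 74038689 for CXCL3 and 73740569 to 73743716 for CXCL8. The 140 bases ahead of each start are shown because they let the shared and the private parts of the 4 promoters be read beside their levels. They are chr4:73869253-73869392 on the plus strand for CXCL1, chr4:74099196-74099335 on the minus strand for CXCL2, chr4:74038690-74038829 on the minus strand for CXCL3 and chr4:73740429-73740568 on the plus strand for CXCL8. Capitals mark GGAATTTCC, a kappaB motif, the kind of element that NF-kB binds.
CXCL1: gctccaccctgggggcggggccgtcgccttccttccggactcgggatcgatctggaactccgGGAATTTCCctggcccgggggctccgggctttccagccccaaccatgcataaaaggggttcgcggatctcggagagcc
CXCL2: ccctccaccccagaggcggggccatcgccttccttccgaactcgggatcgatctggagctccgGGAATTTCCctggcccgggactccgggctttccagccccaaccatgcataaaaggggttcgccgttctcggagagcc
CXCL3: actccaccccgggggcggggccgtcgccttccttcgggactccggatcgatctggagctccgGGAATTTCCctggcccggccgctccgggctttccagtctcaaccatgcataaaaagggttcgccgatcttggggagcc
CXCL8: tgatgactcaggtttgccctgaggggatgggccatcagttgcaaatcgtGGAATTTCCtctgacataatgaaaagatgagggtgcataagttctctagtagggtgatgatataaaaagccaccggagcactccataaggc
The kappaB letters occurred once in each window, at 78 to 70 bases before the start of CXCL1 and CXCL3, 77 to 69 before that of CXCL2 and 91 to 83 before that of CXCL8. Both strands were searched, and 85 of 35116 RefSeq promoters (0.242%) hold these letters in a window of the same length. The AP-1 letters TGANTCA were found in the CXCL8 window, as TGACTCA at 137 to 131 bases before the start, and in none of the other 3, against 3.92% of all promoters. The TATA letters TATAAA were likewise found in the CXCL8 window alone among the 4, against 6.34% of all promoters. Aligned over their length, the CXCL1 and CXCL2 windows were 91.5% identical, CXCL1 and CXCL3 90.7% and CXCL2 and CXCL3 87.9%, whereas CXCL8 was 42.5% to 42.8% identical to them. The kappaB letters are not particular to the 4 ligands. They were also found in the windows of CXCL5 (90 to 82 bases before the start) and CXCL6 (89 to 81), which tumour cells hardly carried. They were absent from that of PPBP. A match is a description of letters, not of a bound site.

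Tumour cells of both pools carried all 4 human ligands, at levels within 1.5-fold of each other. CXCL1 had 485 CPM in the young pool (480.7 to 490.3) and 409 in the aged pool (405 to 414), a ratio of 0.843 (0.831 to 0.856). CXCL8, the ligand that mice lack, had 412 (407 to 416) and 350.1 CPM (346 to 354), a ratio of 0.851 (0.837 to 0.865). CXCL2 had 254 (250.4 to 257) and 266 CPM (262 to 269), a ratio of 1.05 (1.03 to 1.07), and CXCL3 had 108 (106 to 111) and 117 CPM (115 to 119.6), a ratio of 1.08 (1.05 to 1.12). Thus 0 of 4 were apart, where 12 of 5424 measured human genes (0.221%) were. The lower CXCL1 and CXCL8 and the slightly higher CXCL2 and CXCL3 of the aged pool exceeded counting error, but could not be set against the variation among animals. In the cells with exactly 1 hashing tag the direction turned for CXCL2 (279 and 217 CPM) and CXCL3 (116 and 94.2).

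Ligand transcripts were unevenly spread over tumour cells. After each cell was thinned to 2000 UMIs, which left out 42 and 37 shallower cells, CXCL1 was seen in 36.5% and 33.7% of cells, CXCL2 in 25.5% and 26.8%, CXCL3 in 13.3% and 14.2% and CXCL8 in 29.8% and 27.5%. Unthinned, CXCL1 was seen in 69.6% and 67.8%. In mouse cells, which held a median of 70 and 68 human UMIs as free RNA, a CXCL1 UMI was seen in 6.31% and 5.80%, and the other 3 in 1.43% to 4.86%. None of the 4 was seen in 41.7% and 42.3% of thinned tumour cells, and all 4 in 3.17% and 2.85%. The tenth of cells with the most UMIs of each gene held 55.1% to 65.9% of its UMIs. CXCL8 was seen after thinning in 51.7% and 45.8% of cells with CXCL1 and in 17.2% and 18.2% of cells without it. CXCL2 was seen in 51.8% and 52.2% of cells with CXCL3 and in 21.5% and 22.7% of cells without it. Between these pairs, CXCL2 was seen in 37.4% and 39.5% of cells with CXCL1 and in 18.7% and 20.4% of those without, and CXCL3 in 22.2% and 20.9% of cells with CXCL8 and in 9.58% and 11.6% of those without. For all 6 pairs of ligands, in both pools, cells of equal depth that carried 1 gene carried the other more often.

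Over the 12 tumour clusters, which had been formed without the member genes, CXCL1 and CXCL8 peaked in other cells than CXCL2 and CXCL3. CXCL8 was highest in cluster 3, led by the protease genes MMP1 and MMP9 (974 and 710 CPM), next among the deeper clusters in cluster 4, led by IL24 and CCL19 (611 and 699), and lowest in cluster 6, where CENPF and ASPM, genes of mitosis, led (87.2 and 86.2). CXCL1 had 808 and 867 CPM in cluster 4, 794 and 555 in cluster 3 and 147 and 152 in cluster 6. Both genes were therefore high in clusters 3 and 4 of each pool and lowest in cluster 6. CXCL1 was also high in cluster 2 (525 and 621 CPM), above cluster 3 in the aged pool.

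CXCL2 and CXCL3 followed another order. CXCL2 was highest in cluster 2, led by FAM3D, AGR2 and KLK6 (442 and 476 CPM), had 284 and 383 in cluster 1, led by CALML5 and FAM3D, and had only 67.4 and 58.3 in cluster 3. CXCL3 had 228 and 256 CPM in cluster 2 and 37.7 and 44.96 in cluster 3. Cluster 3 held 9.93% of the tumour UMIs, with 22.5% of those of CXCL8 and 15.4% of CXCL1 but 2.43% of CXCL2 and 3.59% of CXCL3. Cluster 2 held 12.7% of the tumour UMIs, with 27.3% of those of CXCL3, 22.5% of CXCL2, 16.2% of CXCL1 and 14.3% of CXCL8, so all 4 were above its share there. Per UMI of CXCL2, cluster 3 had 14.4 and 12.2 UMIs of CXCL8, and cluster 6 had 0.641 and 0.583. The MMP1-led cluster was thus the cluster with much CXCL8 and little CXCL2 in both pools.

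**Figure D1:**
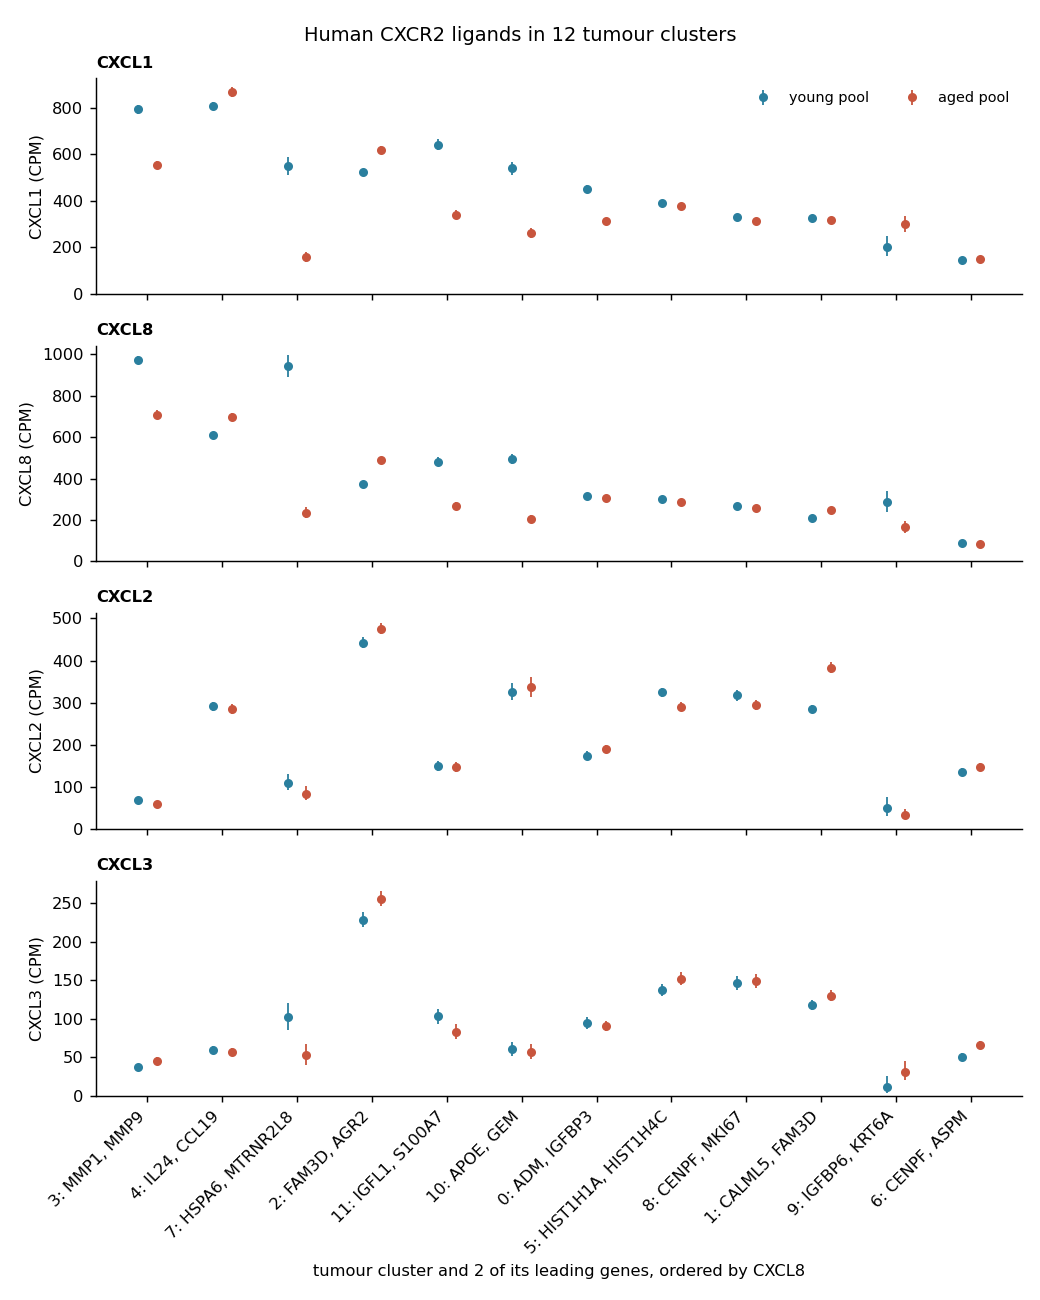
Level of each human ligand in CPM (vertical axes) in each of the 12 tumour clusters (horizontal axes), with 1 point for each pool and bars for exact counting intervals. CXCL8 reached 974 and 710 CPM in cluster 3, where CXCL2 had 67.4 and 58.3.

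As a description over the 12 clusters, with both pools summed and on the log2(CPM + 10) scale, Pearson's r was 0.90 for CXCL1 with CXCL8 and 0.79 for CXCL2 with CXCL3. It was 0.19 for CXCL1 with CXCL2, 0.10 for CXCL1 with CXCL3, -0.03 for CXCL2 with CXCL8 and -0.01 for CXCL3 with CXCL8. The clusters share the same 2 libraries and differ in depth, and reads assigned between the paralogs would touch CXCL1, CXCL2 and CXCL3. CXCL1 thus paired over tumour states with the gene whose promoter window, of the 4, is least like its own. Among 7416 genes the patterns most like CXCL1 were those of CXCL8 (0.90), AC100810.1 (0.88) and SELE (0.87), and those most like CXCL8 were INHBA (0.91), an activin subunit gene, CXCL1 (0.90) and SEMA6A (0.90). Most like CXCL2 were DPYSL3 (0.94) and the immediate early nuclear receptor genes NR4A2 (0.92) and NR4A1 (0.92), and most like CXCL3 were MAPRE2 (0.96), RANBP9 (0.93) and the kinase gene MAP3K8 (0.92).

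Within single tumour clusters the pools stood further apart than over all tumour cells, in 4 clusters of few or shallow cells. Of 46 measured pairs of ligand and cluster 8 were apart, all lower in the aged pool. In cluster 7, led by the heat shock gene HSPA6 (135 and 140 cells, median depth 6740 UMIs), CXCL8 had 942 and 236 CPM, CXCL1 549 and 157 and CXCL3 102 and 52.6, where 10.8% of all measured genes were apart. In cluster 9, led by IGFBP6 and KRT6A (88 and 101 cells, median depth 4588 UMIs and 0.0984% mitochondrial UMIs), CXCL8 had 287 and 164 CPM, where 7.76% of genes were apart. In cluster 10, led by APOE and GEM (91 and 75 cells), CXCL1 had 540 and 261 CPM and CXCL8 494 and 204, where 3.71% of genes were apart. In cluster 11, led by IGFL1 and S100A7 (97 and 60 cells), CXCL1 had 641 and 339 CPM and CXCL8 481 and 267, where 3.29% of genes were apart. A single cell held 30.7% of the young CXCL8 UMIs of cluster 7 and 24.9% of the aged ones of cluster 11. Without the top cell of each pool all 8 remained beyond 1.5-fold, with CXCL8 in cluster 7 at 659.9 and 188 CPM. In clusters 0 to 6 and 8 no ligand was apart, where 0.525%, 0.461%, 0.214%, 1.33%, 0.963%, 0.355%, 0.517% and 0.354% of genes were. The part of depth in these differences was not tested.

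Hashing tags, antibodies bound to the human cells, divided part of each pool, but which animal or lesion a tag stands for is not given in the sources used here. Exactly 1 tag was found on 887 and 948 tumour cells, and 3 tags in each pool marked at least 100. CXCL1 had 665, 445 and 761 CPM in the young sets (H-HTO-3, H-HTO-4 and H-HTO-6) and 515, 359 and 385 in the aged sets (H-HTO-2, H-HTO-3 and H-HTO-4). CXCL8 had 445, 337 and 674 CPM in the young sets and 464, 305 and 256 in the aged sets. Both were highest in the 114 cells of young tag H-HTO-6.

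That set was the lowest of the young sets in the other pair. CXCL2 had 326, 329 and 182 CPM in the young sets and 191, 236 and 182 in the aged sets. CXCL3 had 113, 148 and 61.1 CPM in the young sets and 88.7, 79.0 and 86.0 in the aged sets. The ranges of the 2 pools overlapped for all 4 ligands, and within a pool the highest set was 1.12-fold to 2.42-fold the lowest. How many of all human genes overlapped in this way was not counted. In the aged pool the set of tag H-HTO-2 was the highest for CXCL1, CXCL8 and also CXCL3, and that of tag H-HTO-3 for CXCL2. The cells without a single tag (1238 and 1053) had 233 and 313 CPM of CXCL2 and 102 and 139.6 of CXCL3, so the aged level of these 2 genes over all tumour cells lay above all 3 aged sets.

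**Figure D2:**
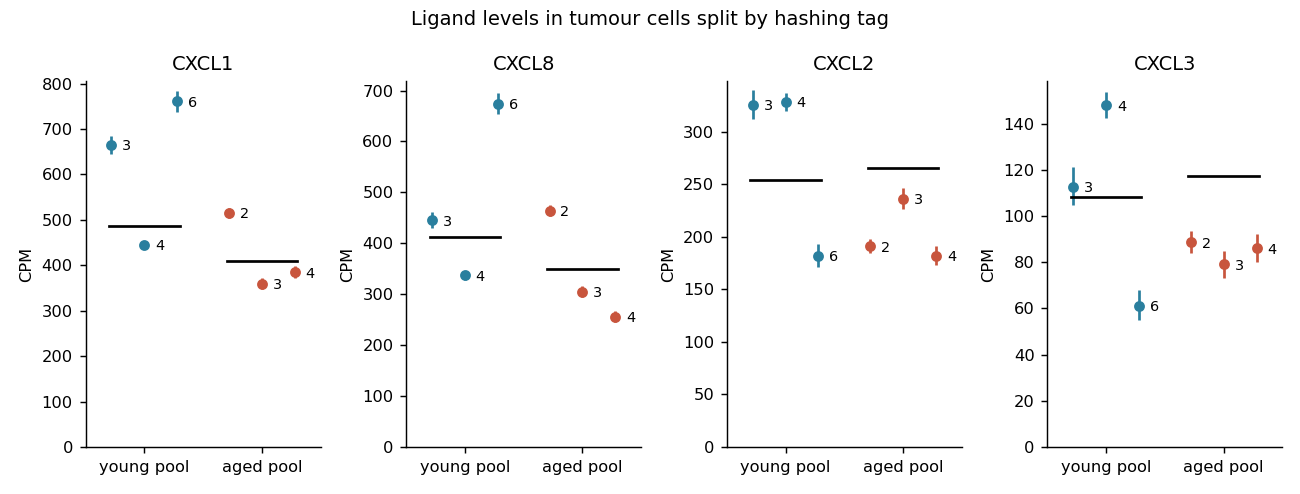
Level of each human ligand in CPM (vertical axes) in the 3 tag sets of at least 100 tumour cells of each pool (points, numbered by tag, with exact counting intervals), and black lines for the level over all tumour cells of the pool. The young set of tag 6 is highest for CXCL1 (761) and CXCL8 (674) and lowest of the young sets for CXCL2 (182) and CXCL3 (61.1).

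Genes known to induce the ligands or to control their transcripts were counted in tumour cells by list. None of the 15 NF-kB and AP-1 control genes was apart, and their median log2 ratio was 0.07 against 0.00 over all measured genes. In tumour cells 0.221% of all measured genes were apart, so that a count of 0 does not set a list apart. NFKBIA, the NF-kB inhibitor and a target of it, had 678 and 656 CPM, and NFKB1 had 50.1 and 52.5. All 6 genes of mRNA decay were measured and none was apart, with ZFP36 at 284 and 289.9 CPM. Of 10 inducing cytokines and their receptors 3 were measured (TNF, IL1RAP and TNFRSF1A) and none was apart, with TNF at 52.9 and 56.2 CPM. Of 8 neutrophil-mobilising factors 4 were measured and 1 was lower, the calprotectin subunit gene S100A8 at 173 and 109 CPM. The colony-stimulating factor gene CSF3 stayed under the minimum at 15.7 and 10.2 CPM. The tumour cells had 0 and 1 UMIs of CXCL5, 0 and 0 of CXCL6 and 1 and 2 of CXCR2 in all, so the receptor was at the limit of detection in them.

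Host cells differed by ligand in which class carried it. UMIs of Cxcl2 came mostly from neutrophil-like cells (87.0%), as did those of Cxcl3 (85.1%), those of Cxcl1 came mostly from fibroblast-like cells (66.6%), and those of Cxcl5 almost wholly from fibroblast-like cells (98.2%). The receptor gene Cxcr2 had 95.8% of its UMIs in neutrophil-like cells. These cells made up 79.9% and 76.5% of host cells and 78.1% in all. The class with the highest CPM was the same in both pools for each of the 5 mouse genes. Mouse free RNA was gauged in human cells, which held a median of 223 and 250 mouse UMIs, against a median of 2036 and 1963 UMIs in neutrophil-like cells, 7594 and 7593 in monocyte-like cells, 10322 and 9128 in macrophage-like cells and 14308 and 13245 in endothelial-like cells. A UMI was seen there of Cxcl1 in 11.6% and 16.3% of cells, of Cxcl2 in 66.8% and 67.1%, of Cxcl3 in 11.3% and 11.1%, of Cxcl5 in 1.93% and 2.70% and of Cxcr2 in 9.65% and 8.45%. Human cells needed only 90% of their UMIs on human genes, so a tumour droplet that also held a shallow mouse cell could pass. Their mouse UMIs may thus mix free RNA with such droplets, and the part of each was not tested. Shares of host cells at or below those of human cells, taken without thinning, are read as background in this wider sense.

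**Figure D3:**
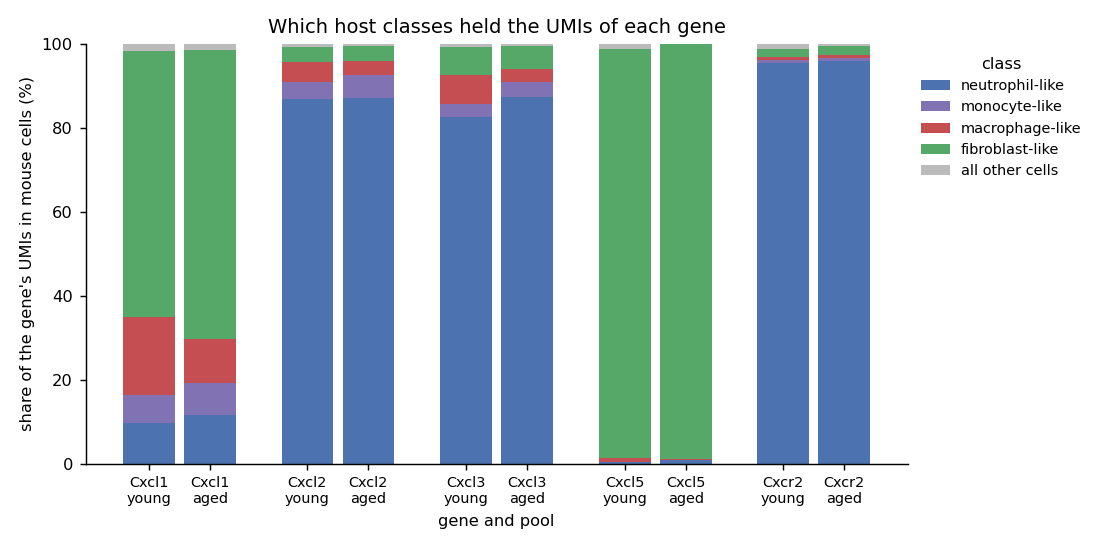
Share in percent of all host UMIs of each mouse gene that each cell class held (vertical axis), for each gene and pool (horizontal axis). Neutrophil-like cells hold 87.0% of Cxcl2 and 95.8% of Cxcr2 over both pools, and fibroblast-like cells 66.6% of Cxcl1 and 98.2% of Cxcl5.

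Cxcl1, the mouse ligand induced in stroma and myeloid cells, had 1090 and 1199 CPM in fibroblast-like cells (715 and 1128 cells), 1019 and 787 in macrophage-like cells (564 and 582) and 581 and 707 in monocyte-like cells (586 and 719). A Cxcl1 UMI was seen in 69.8% and 68.6%, 45.9% and 46.9%, and 30.5% and 38.2% of them, all above the human cells. Fibroblast-like and macrophage-like cells thus lay close together in the young pool, while fibroblast-like cells were the higher in the aged pool. With every cell weighted equally the young order turned, with macrophage-like cells at 1137 and fibroblast-like cells at 1014 CPM. NK-like cells had 13.1 and 19.99 CPM.

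The stromal and macrophage sources of Cxcl1 were themselves uneven. Among fibroblast-like cells cluster 11, led by Col3a1, Dcn and Sparc, had 1267 and 1889 CPM, cluster 12, led by Crabp1 and Timp1, had 988 and 769, and cluster 17, led by Sparc, Cald1 and Tagln, had 1259 and 639. Cluster 12 was the largest cluster of the young fibroblast-like cells (353 of 715) and cluster 11 of the aged ones (610 of 1128). Among macrophage-like cells cluster 10, led by the complement gene C1qa and by Apoe, had 1376 and 1001 CPM, and cluster 20, led by Ctsk and Acp5, a protease and a phosphatase gene known from osteoclasts, had 26.9 and 132. Cxcl1 thus belonged to the C1q-type macrophage-like cells more than to the Ctsk-led ones in both pools. Cluster 20 (76 and 66 cells) was apart, where 6.88% of its measured genes were, as it was for Cxcl2 (596 and 1036 CPM).

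In neutrophil-like cells Cxcl1 had 166 and 261 CPM, a ratio of 1.58 (1.51 to 1.64), and was apart, where 19 of 3259 measured genes (0.583%) were. A single cluster carried much of this. Cluster 7, led by Il23a, G0s2 and Tnf (705 and 988 cells), had 880.4 and 1409 CPM and held 40.3% and 52.1% of the neutrophil-like Cxcl1 UMIs with 7.39% and 10.0% of the cells. Without it the levels were 107 and 139 CPM, a ratio of 1.30 (1.23 to 1.37), and the gene was not apart. In cluster 7 a Cxcl1 UMI was seen in 22.7% and 29.9% of cells, above the human cells. In each of the other 10 neutrophil-like clusters the share of cells was below that of the human cells in both pools. Their Cxcl1 UMIs are not all read as background by this. Clusters 1, 3, 6, 8 and 13 held more Cxcl1 UMIs per cell than human cells (0.236 and 0.333) in both pools, such as 0.427 and 0.572 in cluster 3. By CPM 4 of the 10 measured clusters were apart (0, 1, 2 and 7), where 2.64%, 2.65%, 1.74% and 2.97% of their genes were. Of these, clusters 0 (0.0561 and 0.109) and 2 (0.129 and 0.278) also held fewer Cxcl1 UMIs per cell than human cells in both pools. Their Cxcl1 is read as background by both measures. The mouse UMIs of human cells also held more Cxcl1 in the aged pool (342 and 506 CPM of their mouse UMIs), and the part of free RNA in the neutrophil-like difference was not tested: the subtraction run for other classes is scaled on S100a9, which neutrophils themselves make. The call was also lost with the pools scaled by TMM (1.46-fold) or by the median of ratios (1.47-fold), which shift log2 ratios in this class by -0.11 and -0.10.

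**Figure D4:**
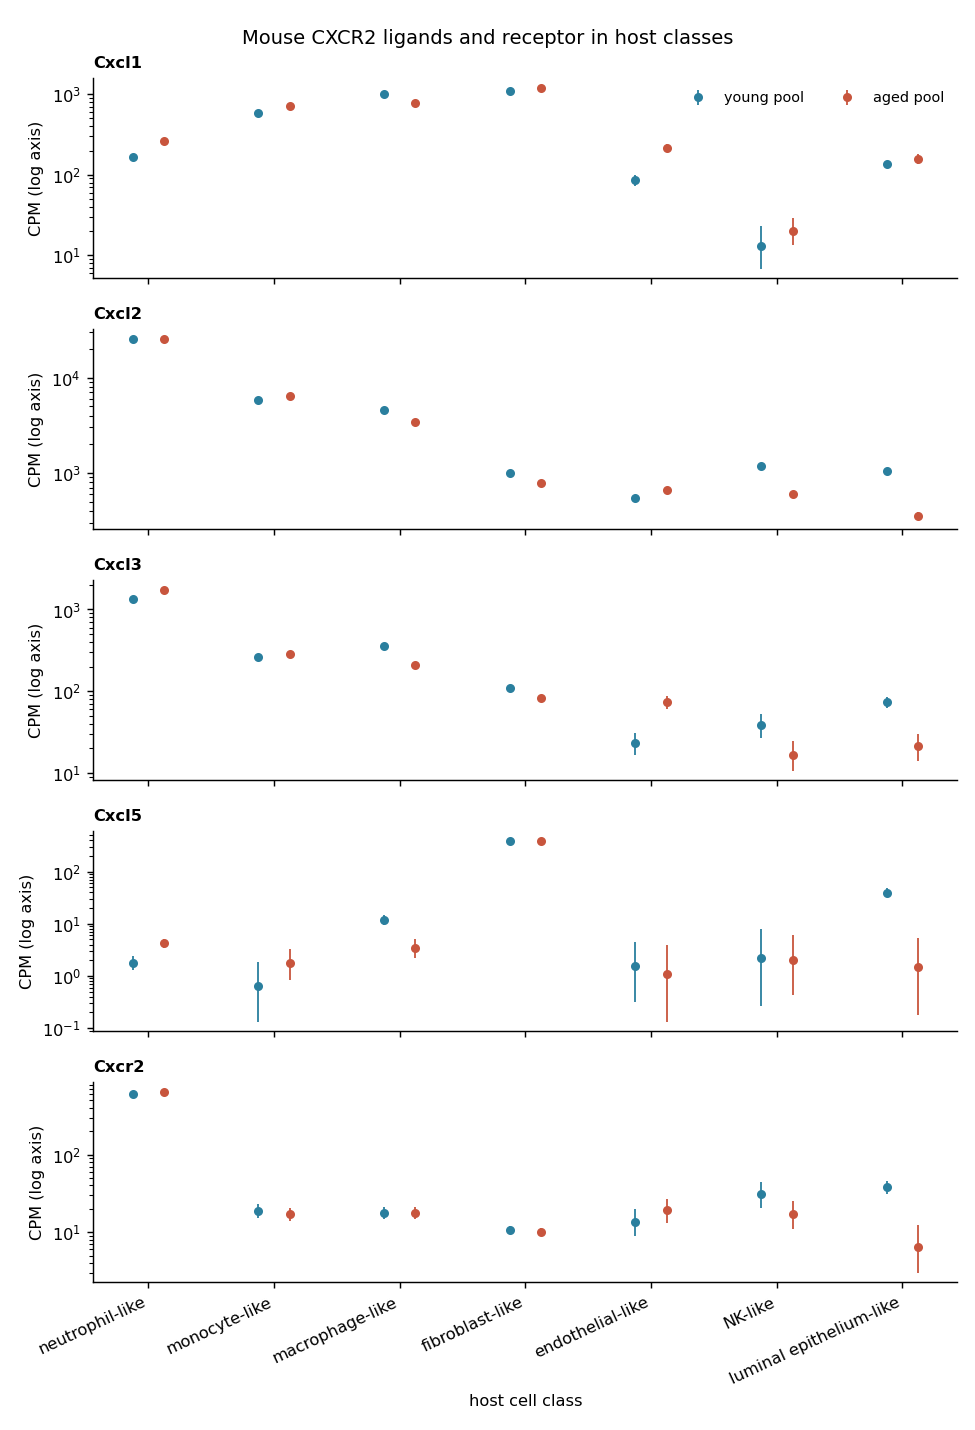
Level of the 5 mouse genes in CPM on a log axis (vertical) in the host classes (horizontal), with 1 point for each pool and bars for exact counting intervals. Fibroblast-like and macrophage-like cells lead for Cxcl1, neutrophil-like cells for Cxcl2, Cxcl3 and Cxcr2, and fibroblast-like cells for Cxcl5.

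Cxcl2, the ligand that activated neutrophils and macrophages make in bulk, had 25407 and 25761 CPM in neutrophil-like cells, a ratio of 1.01 (1.01 to 1.02). After thinning to 2000 UMIs a Cxcl2 UMI was seen in 97.1% and 96.8% of these cells, so nearly every neutrophil-like cell of that depth carried the transcript. Thinning left out 4618 of 9546 and 5123 of 9884 neutrophil-like cells as shallower, and without it the share was 94.0% and 94.3%. Monocyte-like cells had 5861 and 6362 CPM and macrophage-like cells 4553 and 3462. Per 100 UMIs of the neutrophil gene S100a9, human cells held 27.9 and 28.7 Cxcl2 UMIs, monocyte-like cells 198 and 266 and macrophage-like cells 131 and 172. Both classes thus held several times more Cxcl2 per S100a9 UMI than the mouse UMIs of human cells did. Fibroblast-like cells held 52.7 and 49.4 per 100 S100a9 UMIs, at 986 and 787 CPM. Endothelial-like cells (31.0 and 22.6) and NK-like cells (25.8 and 29.6) stood near the human cells.

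Over the 11 neutrophil-like clusters Cxcl2 ranged 7.11-fold in the young pool. It was lowest in cluster 19, led by the granule genes Ngp, Camp and Ltf of immature neutrophils (6388 and 6651 CPM), and highest in cluster 6, led by G0s2, Il1f9 and Fpr1 (45402 and 43523), and cluster 7 (41800 and 46525). The medians over clusters were 21675 and 24114 CPM. None of the 11 was apart between the pools, where in clusters 3, 4, 5, 6 and 13 2.63%, 2.87%, 1.98%, 2.46% and 2.91% of genes were. The low level of cluster 19 is one per UMI of deeper cells (median 7742 and 8135 UMIs). Per cell it held 57.9 and 59.7 Cxcl2 UMIs, above cluster 0 (24.7 and 23.0), and 90.3% and 97.6% of its cells had one, more than of the human cells.

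Cxcl3, a close paralog of Cxcl2, had 1360 and 1738 CPM in neutrophil-like cells, a ratio of 1.28 (1.26 to 1.30) that was not apart. It was higher in the aged pool in 10 of 11 neutrophil-like clusters by value, and apart in cluster 8, led by Stfa2 and Cstdc4 (1843 and 2780 CPM), and cluster 19 (219 and 347), where 2.89% and 4.46% of measured genes were apart. The highest level was again in cluster 6 (2587 and 3662 CPM). Macrophage-like cells had 359 and 211 CPM, a ratio of 0.587 (0.550 to 0.626), and were apart, where 1.32% of measured genes were. At a lower clustering resolution of 0.5 no cluster was named monocyte-like, and a macrophage-like cluster of 2306 cells also carried 9 monocyte markers. The macrophage-like class of that run, which is not the same set of cells, had 318 and 245 CPM and was not apart. Within the class as first formed cluster 10 had 482 and 272 CPM and was apart, where 1.81% of its genes were. A single cell of that class held 11.9% of the young UMIs. Monocyte-like cells had 262 and 288 CPM. Neutrophil-like and macrophage-like cells thus stood on opposite sides of the young level for the same gene, a contrast that was not tested.

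Cxcl5 was a fibroblast gene in these lesions, at 386 and 385 CPM (ratio 0.996, 0.969 to 1.02). A UMI was seen in 32.4% and 36.4% of fibroblast-like cells without thinning, against 1.93% and 2.70% of human cells. Its level was 358 and 362.5 CPM in cluster 11, 312 and 371 in cluster 12 and 786 and 513 in cluster 17. All other classes of at least 100 cells in each pool had at most 11.9 CPM. In cluster 17 (69 and 109 cells) 4 of 4 ligands were lower in the aged pool and apart, where 6.99% of measured genes were, with Cxcl1 at 1259 and 639, Cxcl2 at 891 and 571 and Cxcl3 at 163 and 64.7 CPM. A single cell of that cluster held 30.4% and 21.4% of its Cxcl5 UMIs. Without the top cell of each pool Cxcl5 had 566 and 416 CPM and Cxcl2 727 and 510.3, both under 1.5-fold, while Cxcl1 (1090.1 and 577) and Cxcl3 (135 and 49.6) stayed beyond it. Clusters 11 and 12 had no ligand apart, where 2.14% and 2.05% of genes were. Cxcl1 in cluster 11 lay just under the limit, with a ratio of 1.49. Without the top cell of each pool it had 1231 and 1859 CPM, a ratio of 1.51 and so past the limit.

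Cxcr2, the receptor, had 596 and 640 CPM in neutrophil-like cells, a ratio of 1.07 (1.05 to 1.10) that was not apart, and was seen in 57.0% and 59.8% of the cells deep enough for thinning, and in 55.7% and 56.2% of all of them without it. The other classes of at least 100 cells in each pool had 10.1 to 30.7 CPM, and luminal epithelium-like cells, too few to compare (103 and 60), had 37.9 and 6.54. Their Cxcr2 per 100 S100a9 UMIs lay between 0.51 and 0.87, where human cells had 0.594 and 0.754 and neutrophil-like cells 0.526 and 0.607. Their Cxcr2 thus stood near the ratio of human cells, but so did that of neutrophil-like cells. The ratio therefore cannot tell free RNA from droplets that also held a neutrophil-like cell. Of luminal epithelium-like cells 31.1% and 5% had a Cxcr2 UMI without thinning, the young share being above human cells. A UMI was seen in 12.4% and 12.4% of fibroblast-like cells, somewhat above human cells, at a depth of 24595 and 21457 UMIs, and in 7.09% to 9.40% of monocyte-like and macrophage-like cells. Among the neutrophil-like clusters cluster 5, led by G0s2 and Asprv1, had 1165 and 1242 CPM and cluster 13, led by the interferon-induced genes Rsad2 and Ifit1, had 940.5 and 1021. The lowest were cluster 3 (311 and 288) and cluster 1, led by Ciart and Hcar2 (252 and 239), a range of 4.63-fold and 5.19-fold. No cluster was apart between the pools.

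Ligand and receptor levels followed different orders over the neutrophil-like clusters. As a description over 11 clusters from the same 2 libraries, Pearson's r was 0.10 for Cxcr2 with Cxcl2, 0.09 with Cxcl3 and 0.03 with Cxcl1, while it was 0.85 for Cxcl2 with Cxcl3. Cluster 3 had 30847 and 33216 CPM of Cxcl2, above the median of the clusters, with Cxcr2 near its lowest. Within cells, Cxcr2 was seen in 57.0% and 59.9% of thinned neutrophil-like cells with Cxcl2 and in 56.6% and 57.3% of those without. Cxcl2 was seen in 97.1% and 97.0% of those with the receptor, against 97.1% and 96.8% of all thinned neutrophil-like cells. Cells with the receptor transcript thus mostly held Cxcl2 too, but a transcript so widespread cannot show a tie between the 2 genes.

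**Figure D5:**
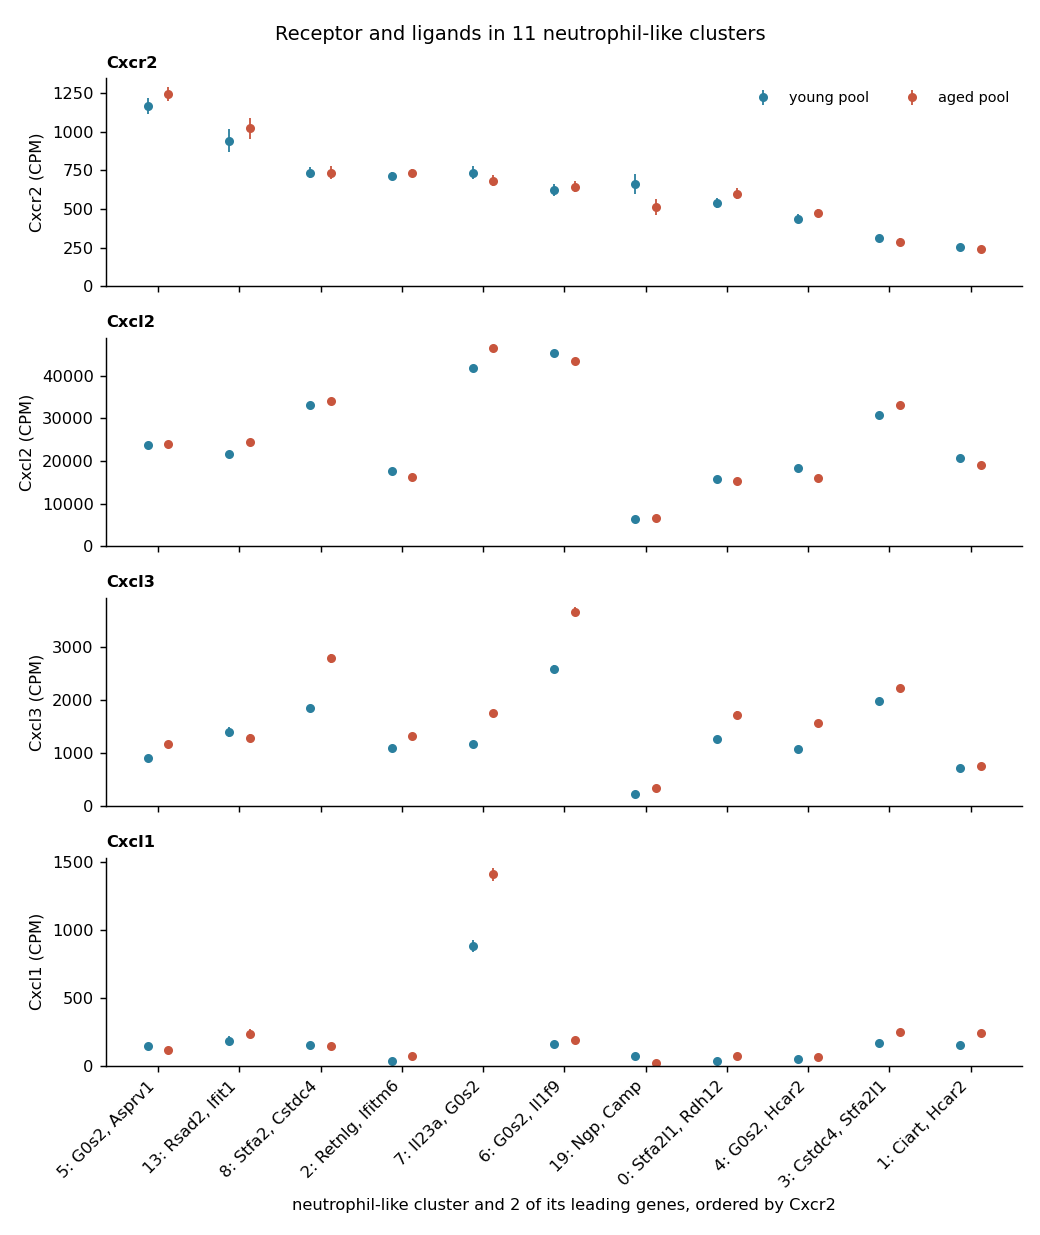
Levels of the mouse genes in CPM (vertical axes) in the 11 neutrophil-like clusters (horizontal axes), with 1 point for each pool and bars for exact counting intervals. Cluster 7 stands above the other clusters for Cxcl1 (880.4 and 1409) and cluster 5 is highest for Cxcr2 (1165 and 1242).

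In single macrophage-like cells Cxcl1 and Cxcl2 occurred together. Cxcl2 was seen in 97.3% and 95.9% of thinned macrophage-like cells with Cxcl1 and in 52.5% and 56.7% of those without. Summed over the 4 mouse ligands, whose UMIs are counted at the 3' end and do not scale with transcript length, neutrophil-like cells held 81.2% of the UMIs, fibroblast-like cells 8.60%, macrophage-like cells 4.78% and monocyte-like cells 4.69%. Without Cxcl2 fibroblast-like cells held 44.2% and neutrophil-like cells 41.3%. Per cell, fibroblast-like cells carried 84.2 and 65.3 ligand UMIs, macrophage-like cells 77.0 and 53.2, neutrophil-like cells 65.8 and 64.3 and monocyte-like cells 53.6 and 57.7, at very different depths (medians of 24595 and 21457 UMIs in fibroblast-like cells). The large neutrophil-like share thus came with their number more than with their ligand UMIs per cell.

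Over the 6 host classes with at least 100 cells in each pool, 5 of 18 measured pairs of gene and class were apart. Fibroblast-like and monocyte-like cells had none, where 3.75% and 1.06% of measured genes were apart. Besides Cxcl1 in neutrophil-like cells, the pairs higher in the aged pool were Cxcl1 (85.5 and 217 CPM) and Cxcl3 (22.9 and 73.0) in endothelial-like cells (124 and 121 cells), where 4.62% of genes were apart. A single cell held 43.2% of the aged Cxcl1 UMIs of this class, and without the top cell of each pool Cxcl1 had 69.8 and 126 CPM. Cxcl3 was seen in 8.06% and 15.7% of endothelial-like cells, the young share being at background. Cxcl2 in NK-like cells was lower in the aged pool (1175 and 599 CPM), where 4.3% of genes were apart, but its share of cells (49.0% and 40.1%) was below that of human cells and is read as background. With doublets kept it had 1812 and 1685 CPM and was not apart, while Cxcl1 (51.7 and 86.6) and Cxcl3 (36.1 and 116) then were in NK-like cells.

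The other genes of the pathway were counted in host cells by list. In neutrophil-like cells 0 of 38 measured genes over 7 lists were apart, where 0.583% of all genes were, so that a count of 0 does not set the lists apart. They held 12 of NF-kB control, 9 of receptor signalling and 5 of mRNA decay. Cxcr1, the second receptor of the family, had 66.3 and 62.7 CPM there, Ccrl2, an atypical receptor of activated neutrophils, 2674 and 2875, the inducer Il1b 17747 and 17155, Tnf 228 and 303 and Csf3r, the receptor of granulocyte colony-stimulating factor, 979.9 and 1015. In fibroblast-like cells 4 of 32 measured list genes were apart, where 3.75% of all genes were. They had the marrow-retention chemokine gene Cxcl12 at 282 and 494 CPM and the adhesion gene Icam1 at 31.1 and 55.3, both apart and higher, and Csf3 (36.1 and 15.6) and the signalling regulator Rgs2 (92.1 and 58.4), both apart and lower. A single listed gene was apart and lower in macrophage-like cells (Il1a, 263 and 158 CPM, 1 of 39), in monocyte-like cells (Pf4, 29.3 and 16.0, 1 of 42) and in NK-like cells (Il1b, 1191 and 539, 1 of 32). Over all measured genes 1.32%, 1.06% and 4.3% were apart in these classes. The neutrophil gene S100a9 was also lower in aged NK-like cells (4551 and 2026 CPM). The part of free RNA in their Il1b was not tested. In endothelial-like cells 6 of 32 were apart, where 4.62% of all genes were. They had higher Selp (130.3 and 252 CPM) and Sele (61.5 and 97.0), the selectins that slow passing leukocytes, higher Rgs2, Cebpb and Zfp36, and lower Csf3 (71.9 and 40.9).

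Genes with the most similar pattern over 22 host clusters, among 10090 compared, were described by Pearson's r, with the clusters drawn from the same 2 libraries. Nearest to Cxcr2 were G0s2 (0.99), Hdc (0.99) and Mrgpra2b (0.98), all high in neutrophil-like clusters. Nearest to Cxcl2 were the cystine transporter gene Slc7a11 (0.99), the lectin receptor gene Clec4e (0.98) and the interleukin-1 antagonist gene Il1rn (0.98), and to Cxcl3 Cdkn1a (0.96), Cebpb (0.95) and Rab20 (0.95). Nearest to Cxcl5 were Ndufa4l2 (0.99), the mesenchymal factor gene Prrx1 (0.99) and the hyaluronan synthase gene Has2 (0.98). Cxcl1, spread over stroma and myeloid cells, had looser neighbours in Cd302 (0.85), Snx24 (0.83) and Lrp1 (0.81).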

How the data were processed

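Libraries were made with a 3' droplet kit once dead cells had been removed and hashing antibodies bound, per the labels. The deposited matrices hold UMI counts per gene and barcode, made with Cell Ranger 6.0.0 on GRCh38 and mm10 per the submitters' processing notes. Barcodes with at least 90% of UMIs on 1 species, 500 UMIs, 300 genes and at most 20% mitochondrial UMIs were kept, and mixed barcodes (1369 and 1083) left out. Scrublet's own threshold called 2, 2, 0 and 0 doublets, so a score limit of 0.25 was set after the scores were seen. It removed 123 and 172 human and 1045 and 1166 mouse cells. Cells were clustered in scanpy 1.11.5 (2000 variable genes without members or listed genes, 30 components, 15 neighbours, Leiden resolution 1, leidenalg 0.10.2). The fold rule was run on counts simulated with counting error alone. That run holds nothing of the variation among animals or libraries, so it cannot show how the rule fares against it. Named genes are all 9 members, listed pathway genes and the 3 genes most correlated with each member. Members and lists were chosen with earlier results of these data known. Host classes of fewer than 100 cells in a pool were not compared. Alternatives included scaling by TMM (edgeR 4.0.16). Promoter windows were searched and aligned with Biopython 1.88. Mouse promoter and protein sequences were not used here.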

Additional observations from a re-analysis of the deposited data

How the results depend on the processing

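No paired analysis was possible because each pool is 1 library. No ligand was apart in tumour cells under any alternative run. The count of pairs apart in host classes was 5, and 2 at a limit of 2-fold. The number of ligands whose tag sets overlapped between the pools was 4, and 2 at 98% species purity, where 1 young and 3 aged sets remained. CXCL2 then had 338 CPM against 179 to 236, and CXCL3 146 against 82.1 to 97.5. With 1 set the young pool had no range, and overlap was not counted over all human genes. No separation of the pools is therefore read from this count. In cells with 1 tag the direction of CXCL2 (279 and 217 CPM) and CXCL3 (116 and 94.2) in tumour cells turned. With clusters weighted equally the Cxcl1 difference of neutrophil-like cells was 1.39-fold. Alternatives chosen after seeing the data were those without shared barcodes, without tumour clusters 7 and 9, without neutrophil-like cluster 7, without the top cell of host clusters, with free RNA scaled on S100a9 subtracted from classes other than neutrophil-like cells, and with clusters weighted equally. Log2 ratios of genes stayed within 0.2 of the reported value in 247 of 265 recalculations. A shift of 0.2 is nearly as large as the log2 ratio of CXCL1 (-0.25) or CXCL8 (-0.23) in tumour cells. It is larger than that of CXCL2 (0.06) or CXCL3 (0.11). With shares of cells thinned to 1000 UMIs counted too, 124 of 333 recalculated values fell outside the counting interval of the reported one. Outside neutrophil-like cells Cxcr2 did not count as measured in any compared class. Fibroblast-like (251 and 302 UMIs), macrophage-like (129 and 122) and monocyte-like cells (88 and 96) stayed under 20 CPM. NK-like (28 and 25 UMIs) and endothelial-like cells (26 and 35) had too few UMIs.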
